A study of Mus musculus with 24 samples.

Results

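The nuclear genes for the enzymes of oxidative phosphorylation were followed in MIN6 cells, a mouse insulinoma line used as a model of the pancreatic β cell. They were chosen by symbol alone, as every listed gene beginning with Nduf, Uqcr, Atp5 or Cox with a digit from 4 to 8, together with Sdha, Sdhb, Sdhc, Sdhd and Cyc1. This gave 97 of 17696 genes: 39 subunits and 8 assembly factors of complex I, 4 subunits of complex II, 9 of complex III, 11 of complex IV and 17 of complex V, 6 tissue or condition isoforms of complex IV, the supercomplex factor Cox7a2l and 2 copies named as pseudogenes. Of the 97 members, 94 passed edgeR's filter on low counts, and all 97 stayed in the tests.

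Cells had been transduced with a lentiviral vector that carried a scrambled sequence (Scr), an antisense inhibitor of miR-146a-5p (ZIP) or miR-146a-5p itself (OE), and were selected with puromycin. Each line was then left untreated or exposed for 24 h to IL-1β (5 ng/ml), IFNγ (100 ng/ml) and TNFα (10 ng/ml), the exposed groups being named with the ending +Cy. Each of the 6 groups has 4 mRNA-seq libraries. The ZIP and Scr vectors shared a backbone with a copGFP reporter, whereas OE used another vector with TurboRFP. Lines were expanded from picked single clones, so the effect of the vector and the difference between clones cannot be told apart in any comparison between lines. How many clones made up a line is not given in the sources used here. The miRNA itself is not captured by these libraries and was not analysed here.

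Oxidative phosphorylation couples electron flow to ATP synthesis. Complex I and complex II pass electrons from NADH and succinate to ubiquinone, complex III passes them on to cytochrome c, and complex IV reduces oxygen, while the proton gradient built by complexes I, III and IV drives the ATP synthase, complex V. Most subunits are encoded in the nucleus and the rest in mitochondrial DNA. In β cells the ATP made in this way closes potassium channels after a rise in glucose, which starts insulin release.

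The mature miRNA that the OE vector supplies and the ZIP vector antagonises is shown first because its seed was used to search the members. In RefSeq on GRCm38.p6 it lies at chr11:43374435-43374456 on the minus strand, and capitals mark the seed, bases 2 to 8 from the 5′ end.
mmu-miR-146a-5p: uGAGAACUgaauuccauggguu

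Of 90 members with a 3′ UTR in GENCODE M21, 5 (5.56%) held the 7-base complement of that seed, AGTTCTC, compared with 1979 of 15446 genes (12.8%) of the whole table. The members' 3′ UTRs were short, with a median of 196 bases for the longest of each gene against 1114 bases over all genes. The 5 sites are shown with 9 bases on each side and the match in capitals. They lie on the minus strand of GRCm38.p6 at chr17:83501982-83502006 (Cox7a2l), chr19:44549264-44549288 (Ndufb8), chr9:50596526-50596550 (Sdhd), chr4:116067039-116067063 (Uqcrh) and chr11:53428099-53428123 (Uqcrq).
Cox7a2l: tgtgtcaggAGTTCTCctttaataa
Ndufb8: acagtctaaAGTTCTCagatttata
Sdhd: aatttagggAGTTCTCcttgtttgt
Uqcrh: gatggagtgAGTTCTCgagaacctc
Uqcrq: agtactaaaAGTTCTCagaagagag

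These 5 genes did not move in a common direction between lines. Ndufb8 was lower than in Scr in both ZIP (log2 fold change −0.32) and OE (−0.41), Uqcrq was higher in ZIP (0.25) and Sdhd was higher in OE (0.15). Cox7a2l and Uqcrh were not called in either line, with log2 fold changes of 0.06 and 0.03 in ZIP and of −0.17 and 0.00 in OE. A seed match is a run of letters and not evidence of binding. Shorter matches to the seed and sites outside the 3′ UTR were not searched, so other members may also hold sites.

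Libraries held 26657795 to 37168207 assigned reads (median 30701018), of which the members took 0.685% to 0.862%. Levels are given as counts per 1e6 reads (CPM) after TMM scaling. A value for a member is thus relative to the other genes of its library, and is not a plain share of its reads. Fewer cells of a kind and less RNA per cell cannot be told apart in such bulk samples. All 8 β cell markers reached 1 CPM in every group, with a summed level of 18700 to 25000 CPM in Scr, 28300 to 30800 in ZIP and 40000 to 43700 in OE. After cytokines this sum was 19600 to 21500 CPM in the Scr line, 25500 to 28400 in the ZIP line and 25300 to 33000 in the OE line, where treated and untreated libraries did not overlap. None of the 3 acinar markers was listed, and no skeletal muscle marker reached a group mean of 1 CPM. Of the 4 α and δ cell markers, Gcg and Sst were listed, with a summed level of 246 to 369 CPM in Scr, 101 to 305 in ZIP and 39.9 to 45.1 in OE. With cytokines it was 134 to 190 CPM in the Scr line, 78.3 to 218 in the ZIP line and 6.66 to 29.3 in the OE line. Fibroblast markers summed to 0.537 to 30.1 CPM over all libraries and leukocyte markers to 0.589 to 4.41 CPM. The part of these differences in the results below was not tested.

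The summed level of the subunits of all 5 complexes was 7382 ± 79.2 CPM in Scr (mean ± SD, n = 4) and 6988 ± 256 in Scr+Cy. It was 7799 ± 380 CPM in ZIP and 7459 ± 370 in ZIP+Cy, compared with 7647 ± 237 in OE and 6648 ± 362 in OE+Cy. The lowest mean sum was thus that of OE+Cy, at 90.1% of Scr, with Scr+Cy at 94.7%. This order depends on the TMM factors, which were 1.038 to 1.063 in OE+Cy and 0.983 to 1.003 in Scr+Cy. As plain shares of reads, the members took 0.685% to 0.775% in OE+Cy and 0.696% to 0.746% in Scr+Cy. Those shares were 0.764% to 0.793% in Scr and 0.764% to 0.862% in ZIP. Libraries of OE+Cy (6256 to 7010 CPM) overlapped those of Scr+Cy (6721 to 7229), and did so for each of complexes I, III, IV and V. By complex, OE+Cy stood at 87.4% of Scr for complex I, 104% for complex II, 92.5% for complex III, 82.2% for complex IV and 92.3% for complex V. Libraries of OE+Cy (906.8 to 1063 CPM) did not overlap those of Scr (1153 to 1203) for complex IV, and likewise for complex I (1773 to 2002 against 2082 to 2190). Nor did they for complex V (2496 to 2797 against 2851 to 2931). For complex III they overlapped those of Scr (609.3 to 707.5 against 697.2 to 731.1). For complex II they overlapped those of ZIP and OE and lay partly above Scr. These sums weight abundant subunits most and carry no test.

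**Figure D1:**
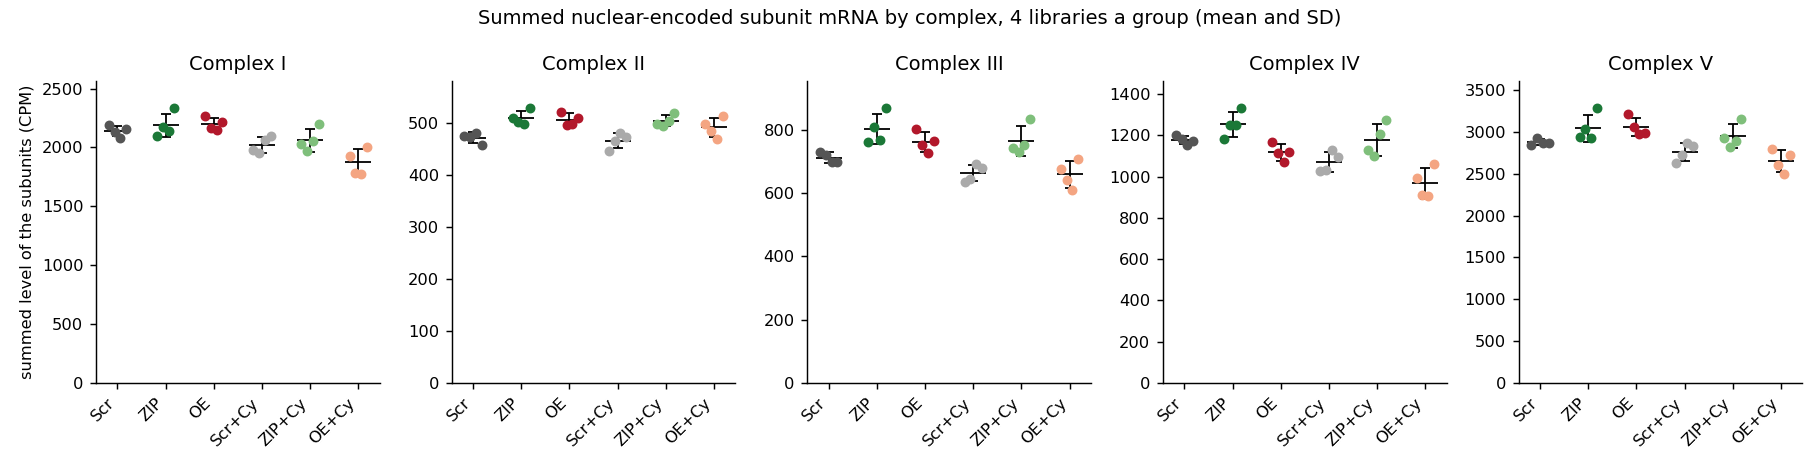
Summed CPM of the nuclear-encoded subunits of each complex (y axis, from 0) in the 6 groups (x axis). Points are libraries, the horizontal mark is the mean and the bar the SD of 4 libraries. After TMM scaling, the mean of OE+Cy is lowest for complexes I, III, IV and V, where its libraries overlap those of Scr+Cy. The mean of complex II stays at 98.8% to 108% of Scr in every group.

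Between untreated lines, a gene was called at an adjusted p under 0.05 in the fit over all 24 libraries. In ZIP, 13 members were higher and 5 lower than in Scr. Such calls made up 28.3% of all genes in this comparison and 35.2% of the 9738 genes with a mean of at least 10 CPM. In OE, 20 members were higher and 15 lower, where 50.1% of all genes and 61.2% of those at 10 CPM or more were called. The median log2 fold change of the members was 0.05 in ZIP and 0.00 in OE, and that of all genes was 0.00 in both. The share of members called was thus below that of all genes in both comparisons, and the calls went both ways. Past the study's limits of a 1.5-fold change and an unadjusted p of 0.05, 4 members were called in ZIP (14.9% of all genes) and 9 in OE (25.7%).

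After cytokines the calls pointed mostly one way. In Scr+Cy, 0 members were higher and 10 lower than in Scr, where 17.8% of all genes were called (10.5% higher and 7.33% lower). At an unadjusted p under 0.05, 20 members were called in that comparison, and DESeq2 also called 0 higher and 13 lower. In ZIP+Cy against ZIP, 3 members were higher and 12 lower (26.4% of all genes called, 12.8% lower). The replicate numbers paired these libraries, and with the replicate as a block the counts were 5 higher and 18 lower. For the counts with this block, by DESeq2 and at an unadjusted p alone, the share of all genes is not given here. Those counts therefore do not set the members against other genes. The OE line had 2 members higher and 47 lower in OE+Cy than in OE, where 44.6% of all genes were called and 21.5% were lower. The summed β cell markers and the summed α and δ cell markers were also lower in every OE+Cy library than in any OE library, and their part in this result was not tested. Among genes with a mean of at least 10 CPM, 22.4%, 34.7% and 58.3% were called in the Scr, ZIP and OE lines, and 10.5%, 17.1% and 32.1% were lower. The members that were lower numbered 10, 12 and 47 of 97 in the same order. Only in the OE line was their share above that of genes at this level. With the limits of 1.5-fold and an unadjusted p of 0.05, the members called numbered 2, 1 and 3 in the same order (10.6%, 12.5% and 21% of all genes). Median log2 fold changes of the members were −0.09, −0.06 and −0.18 in the 3 lines, in the order Scr, ZIP and OE, against 0.00, −0.01 and 0.02 for all genes.

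The count in Scr+Cy was 4 without Scr+Cy replicate 2, 5 without Scr+Cy replicate 3 and 5 without Scr replicate 1. The count in ZIP+Cy against ZIP was 9 without ZIP+Cy replicate 2. The count in OE+Cy against OE stayed between 40 and 54 whichever library was left out.

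**Figure D2:**
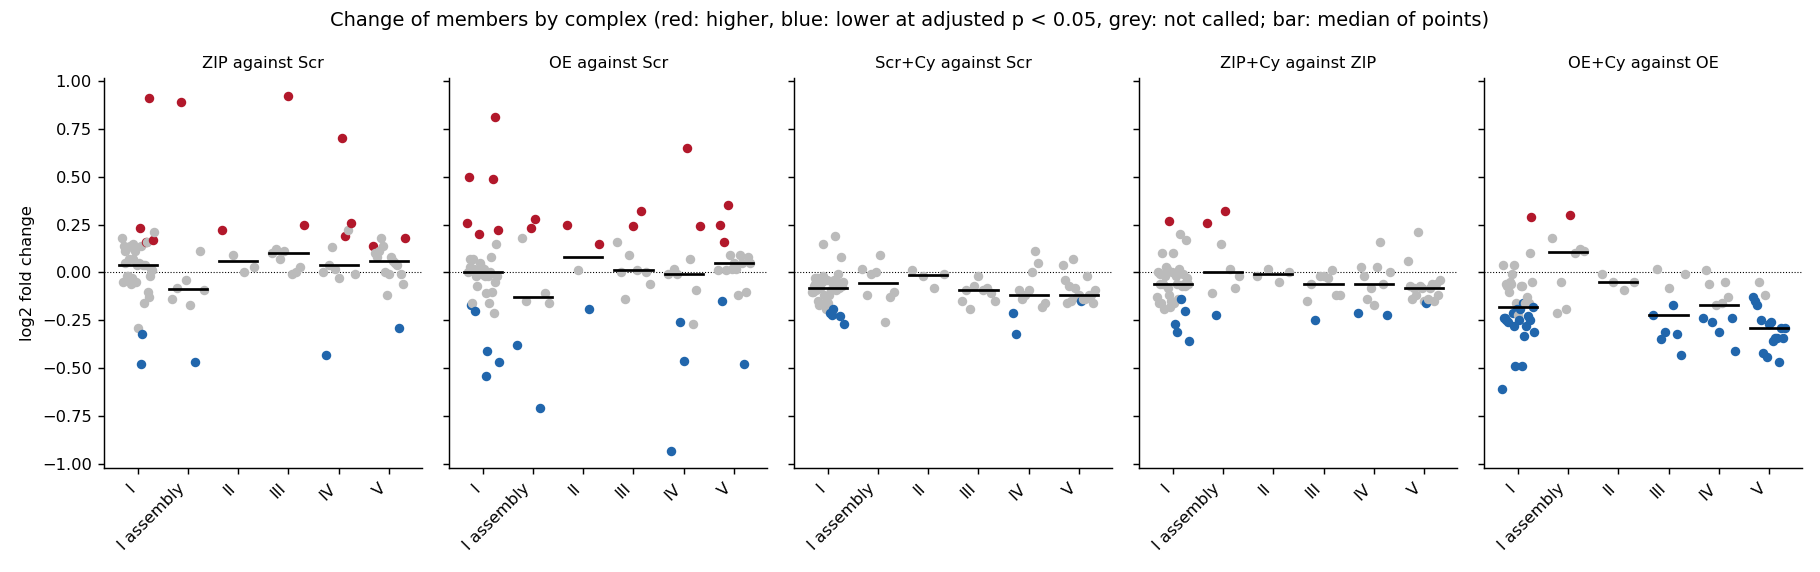
Log2 fold change of members (y axis) by complex (x axis) in 5 comparisons, with red for higher and blue for lower at an adjusted p under 0.05, grey for not called and a bar at the median of the points drawn. Complex V lies wholly below 0 in OE+Cy against OE, and complex II holds no called member in any of the 3 cytokine comparisons. Ndufa11b, which did not pass the filter on low counts, is left out.

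Complex I, the NADH dehydrogenase, had 4 subunits higher and 2 lower of 39 in ZIP, and 7 higher and 5 lower in OE. After cytokines, 5 were lower and 0 higher in the Scr line. In the ZIP line 5 were lower and 1 higher, and in the OE line 20 were lower and 1 higher. In the last comparison 3 of the 7 nuclear-encoded core subunits and 17 of 32 accessory subunits were lower. Its median log2 fold change in OE+Cy against OE was −0.19.

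Ndufs6 (chr13:73319876-73328482, mm10), an accessory subunit that binds zinc, was higher in both modified lines. It was 23.1, 22.4, 18.8 and 21.6 CPM in Scr, 38.1, 39.8, 43.1 and 41 in ZIP, and 39.9, 38.3, 36.6 and 35.8 in OE. In the cytokine groups it was 18.7, 18.3, 17.5 and 18.7 CPM in treated Scr cells, 35.1, 30.7, 39.2 and 36.2 in treated ZIP cells and 32.6, 30.5, 30.3 and 33.6 in treated OE cells. No library of ZIP or OE, treated or not, fell to the range of the Scr libraries. This gave log2 fold changes of 0.91 (SE 0.0697, adjusted p = 3e-10) in ZIP and 0.81 (SE 0.0695, adjusted p = 6.59e-10) in OE. Cytokines lowered it by a similar size in each line, with log2 fold changes of −0.23, −0.20 and −0.25 and adjusted p values of 0.0241, 0.0333 and 0.00493. Differences between those responses were not called (0.03 for ZIP and −0.01 for OE).

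Ndufb8 (chr19:44548571-44555442), an accessory subunit of the membrane arm, fell with both line and treatment. It was 181, 191, 188 and 202 CPM in Scr, 147, 151, 150 and 163 in ZIP, and 144, 144, 142 and 146 in OE. After cytokines it was 156, 158, 171 and 169 CPM in treated Scr cells, 124, 118, 117 and 133 in treated ZIP cells and 103, 102, 90.2 and 114 in treated OE cells. Every treated library was below every untreated library of its own line. The log2 fold change of OE+Cy against OE was −0.49 (SE 0.0586, adjusted p = 2.32e-07), compared with −0.22 in Scr, a difference of −0.27 (SE 0.0825, adjusted p = 0.0219).

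Other complex I subunits were named by the same rule. Ndufb7, another membrane arm subunit, was lower in ZIP (−0.48, adjusted p = 3.22e-07) and in OE (−0.54, adjusted p = 1.52e-08), and was not called in any cytokine comparison within a line. Ndufv3 was lower in OE (−0.47) and lower after cytokines in all 3 lines (−0.27, −0.36 and −0.31). Ndufa1 was higher in OE (0.26, adjusted p = 0.0101) and lower in OE+Cy against OE (−0.61, adjusted p = 1.94e-06). Ndufb11 was lower in OE+Cy against OE (−0.49, adjusted p = 5.46e-06). Ndufa1 overlaps Rnf113a1 on the opposite strand, whose group means were 4.2 to 7.25 CPM against 38.1 to 57.9 CPM for Ndufa1, and Ndufb11 overlaps Rbm10 on the opposite strand and Btbd35f26 on its own.

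Among the core subunits, Ndufs1 was higher in ZIP (0.16) and lower in OE+Cy against OE (−0.28, adjusted p = 1.96e-05). It was also called lower in ZIP+Cy against ZIP. Ndufs8 was the only subunit of complex I that was higher in OE+Cy against OE (0.29, SE 0.0655, adjusted p = 0.000859). Ndufv1, which binds NADH and flavin, was not called in any of the 9 comparisons, with log2 fold changes from −0.08 to 0.04. Ndufb1 was higher in ZIP+Cy against ZIP (0.27, adjusted p = 0.0206). Counts for Ndufb4 and Ndufb4c, for Ndufs5 and Ndufs5-ps and for Ndufa11b are uncertain, since near-identical copies can share reads.

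The assembly factors of complex I, which help to build the enzyme but are not part of it, did not follow its subunits after cytokines. Of 8, 0 were lower and 1 higher in OE+Cy against OE, with a median log2 fold change of 0.11. The factor that rose was Ndufaf5, from 8.49, 7.05, 7.09 and 7.4 CPM in OE to 9.52, 8.77, 8.68 and 9.87 CPM in OE+Cy (0.30, SE 0.102, adjusted p = 0.0209). It was also called higher in ZIP+Cy against ZIP. Ndufaf5 lies outside the rule for named genes and was picked after its values were seen. In ZIP, Ndufaf3 was higher (0.89, adjusted p = 3.68e-09) and Ndufaf6 lower (−0.47, adjusted p = 0.00546). In OE, Ndufaf6 (−0.71, adjusted p = 4.41e-05) and Ndufaf1 (−0.38, adjusted p = 0.000168) were lower. Ndufaf1 was higher in ZIP+Cy against ZIP (0.26, adjusted p = 0.0111).

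Complex II, succinate dehydrogenase, was the only complex with no subunit called after cytokines in Scr, ZIP or OE (0 of 4 by edgeR in each, and 0 of 4 at an unadjusted p under 0.05). The largest log2 fold change in size among these 12 values was −0.09. Sdha, the flavoprotein subunit, differed between lines, and its place on chr13 within 2 Mb of Ndufs6 is taken up below. It was 194, 202, 202 and 188 CPM in Scr, 229, 227, 225 and 231 in ZIP, and 234, 223, 234 and 240 in OE. In the treated groups it was 192, 199, 200 and 201 CPM in treated Scr cells, 224, 224, 222 and 232 in treated ZIP cells and 233, 226, 224 and 239 in treated OE cells. Every ZIP and OE library lay above every Scr library in both conditions. Sdha differed by 0.22 on the log2 scale in ZIP (SE 0.0383, adjusted p = 0.000109) and 0.25 in OE (SE 0.0383, adjusted p = 8.34e-06). Sdhc, a membrane anchor, was lower in OE (−0.19, adjusted p = 0.00238), while the other anchor Sdhd was higher (0.15, adjusted p = 0.00605), both named after their values were seen. Sdhb, the iron-sulfur subunit, was not called (0.09 in ZIP and 0.01 in OE).

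Complex III, the cytochrome bc1 complex, had 2 subunits higher and 0 lower of 9 in ZIP and the same counts in OE. In OE+Cy against OE, 6 of 9 were lower and 0 higher, with a median log2 fold change of −0.22, compared with 0 of 9 called in Scr+Cy and 1 lower in ZIP+Cy against ZIP. In Scr+Cy all 9 values were below 0, and 1 passed an unadjusted p under 0.05.

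Uqcrc1 (chr9:108936648-108949641), a core protein on the matrix side, had the largest change of the complex in ZIP, where the summed level of complex III was 802.1 ± 48.5 CPM against 712.1 ± 16.6 in Scr. It was 64.1, 65.3, 59.9 and 52.2 CPM in Scr, 114, 118, 107 and 119 in ZIP, and 78.6, 66.7, 70.3 and 69.7 in OE. It was 62.4, 59.3, 58.7 and 57.7 CPM in treated Scr cells, 111, 110, 108 and 122 in treated ZIP cells and 67.5, 69.8, 63.5 and 68.6 in treated OE cells. The ZIP libraries stood well above the others in both conditions, and treatment did not separate libraries of a line. Its log2 fold change in ZIP was 0.92 (SE 0.064, adjusted p = 6.29e-11). Uqcrfs1, the Rieske iron-sulfur subunit, was higher in OE (171 ± 5.57 CPM against 138 ± 2.39 in Scr, log2 fold change 0.32, adjusted p = 6.38e-05) and lower in OE+Cy against OE (−0.32, adjusted p = 6.32e-05). Cyc1, which carries the c1 haem, was lower in OE+Cy against OE (−0.22, adjusted p = 0.0232). Uqcrh had the lowest value of the complex in that comparison (−0.43, adjusted p = 3.51e-05) and was chosen here for its call in the test between responses described below.

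Complex IV, cytochrome c oxidase, had 3 of 11 common subunits higher and 1 lower in ZIP, and 2 higher and 3 lower in OE. After cytokines, 2 were lower in the Scr line, 2 in the ZIP line and 5 in the OE line, and 0 were higher in any. Cox4i1, the common form of subunit 4, was lower by nearly the same size in each line, with log2 fold changes of −0.21, −0.21 and −0.24 (adjusted p = 0.00804, 0.00647 and 0.00122). Its level was 204, 191, 197 and 199 CPM in Scr and 164, 160, 180 and 176 CPM in Scr+Cy.

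Cox5a (chr9:57521232-57532426), an accessory subunit, showed a different order. Its level was 99.9, 128, 119 and 122 CPM in Scr, 79.6, 83.7, 84.9 and 101 in ZIP, and 65.6, 62.5, 59.4 and 59.2 in OE. After cytokines it was 87.1, 94.4, 97.7 and 97.2 CPM in treated Scr cells, 85.2, 84, 83.7 and 104 in treated ZIP cells and 65.4, 62.8, 58.6 and 62 in treated OE cells. Treated and untreated libraries overlapped within ZIP and within OE, but not within Scr. Cox5a changed by −0.43 on the log2 scale in ZIP (SE 0.0795, adjusted p = 0.00019), −0.93 in OE (SE 0.0802, adjusted p = 7.52e-10) and −0.32 in Scr+Cy (SE 0.0793, adjusted p = 0.00567). It was 0.01 in OE+Cy against OE, and the response of OE differed from that of Scr by 0.33 (SE 0.113, adjusted p = 0.0412). The corresponding difference for ZIP was of like size but not called (0.35, SE 0.113, adjusted p = 0.493).

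Cox7a2 (chr9:79755241-79759853), the common form of subunit 7a, was 80.8, 76.4, 75.3 and 75 CPM in Scr, 111, 128, 128 and 135 in ZIP, and 121, 122, 116 and 124 in OE. It was 75.7, 74.6, 78.7 and 77.5 CPM in treated Scr cells, 116, 117, 137 and 141 in treated ZIP cells and 111, 99.5, 102 and 118 in treated OE cells. Scr and Scr+Cy libraries formed a narrow band below all the others. Cox7a2 differed by 0.70 on the log2 scale in ZIP (SE 0.0671, adjusted p = 1.25e-08) and 0.65 in OE (SE 0.067, adjusted p = 1.51e-08). Cox6c was lower in OE (−0.46, adjusted p = 2.6e-05) and lower again in OE+Cy against OE (−0.31, adjusted p = 0.00256).

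The supercomplex factor Cox7a2l, which takes part in the joining of complexes III and IV, was lower in Scr+Cy (−0.27, adjusted p = 0.0344) and in ZIP+Cy against ZIP (−0.25, adjusted p = 0.0387). In OE+Cy against OE its value was 0.11 (adjusted p = 0.342), and the responses of OE and Scr differed by 0.37 (SE 0.123, adjusted p = 0.0336). It was included here for its call between responses, after its values were seen.

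Of the isoforms of complex IV known from particular tissues or conditions, only Cox6a2 exceeded 2 CPM in any library. Cox6a2 (chr7:128205435-128206366) is the heart and skeletal muscle form of subunit 6a, and Cox6a1 is its widely expressed counterpart. Cox6a2 was 45.3, 40, 37.1 and 36.9 CPM in Scr, 53.3, 43.1, 43.2 and 47.8 in ZIP, and 7.1, 6.5, 6.62 and 7.66 in OE. It was 24.6, 21.7, 18.8 and 23.8 CPM in treated Scr cells, 28.9, 22.7, 17.6 and 25.9 in treated ZIP cells and 1.63, 2.24, 2.18 and 1.73 in treated OE cells. The OE libraries lay below all libraries of the other lines, and in each line treated and untreated libraries did not overlap.

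For Cox6a2 the log2 fold change was −2.52 in OE against Scr (SE 0.126, adjusted p = 3.55e-14), −0.84 in Scr+Cy (SE 0.116, adjusted p = 6.02e-06), −0.98 in ZIP+Cy against ZIP (SE 0.116, adjusted p = 5.5e-07) and −1.84 in OE+Cy against OE (SE 0.158, adjusted p = 1.17e-09). The response of OE differed from that of Scr by −1.0 (SE 0.198, adjusted p = 0.000887), whereas that of ZIP differed by −0.13 (adjusted p = 0.953). In ZIP against Scr it was not called (0.23, adjusted p = 0.133). Per kilobase of exon, Cox6a2 made up 19.2% ± 0.65 of the Cox6a1 and Cox6a2 pair in Scr, 20.4% ± 2.13 in ZIP and 4.01% ± 0.31 in OE. With cytokines the shares were 12.7% ± 1.37, 12.5% ± 2.42 and 1.4% ± 0.358 in the same order (mean ± SD, n = 4). Cox6a1 itself was lower in OE+Cy against OE (−0.26, adjusted p = 0.00395) and was not called in the other two lines (−0.14 in each). Skeletal muscle markers summed to at most 0.73 CPM in any library. Cox6a2 overlaps Itgad on the opposite strand, which did not exceed 1.64 CPM and was likewise lower in OE (0.0671 ± 0.021 CPM) than in Scr (0.664 ± 0.174).

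Cox4i2, the form of subunit 4 known from lung and low oxygen, had 0 reads in all Scr, ZIP, Scr+Cy and ZIP+Cy libraries. In OE it was 0.0604, 0.843, 0.552 and 0.458 CPM. The mean of 0.479 CPM was at least 5.41-fold higher than a floor of 3 reads per library in Scr (0.0885 CPM). The library at 0.0604 CPM lay below that floor. Cox7b2, known from testis, also had 0 reads in Scr and ZIP and was 0.212, 0.299, 0.414 and 0.262 CPM in OE. Its mean of 0.297 CPM was at least 3.35-fold above that floor, and it was named after its values were seen. Both remained under 1% of their common counterparts per kilobase, at 0.236% ± 0.159 and 0.668% ± 0.206 in OE. Cox4i2 overlaps Bcl2l1 on the opposite strand, which was 33.9 to 46.8 CPM by group and did not separate OE from Scr (36.1 ± 2.77 against 37.9 ± 1.43 CPM). Ndufa4l2, induced by low oxygen in many cells, stayed at 0.448 CPM or less in every library, Cox6b2 at 0.185 CPM or less and Cox7a1 at 1.74 CPM or less. At these levels Ndufa4l2 was lower in OE (−1.20, SE 0.378, adjusted p = 0.0106), and it overlaps Shmt2 on the opposite strand. Cox7a1 was lower in OE+Cy against Scr+Cy (−0.97, SE 0.311, adjusted p = 0.0109).

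**Figure D3:**
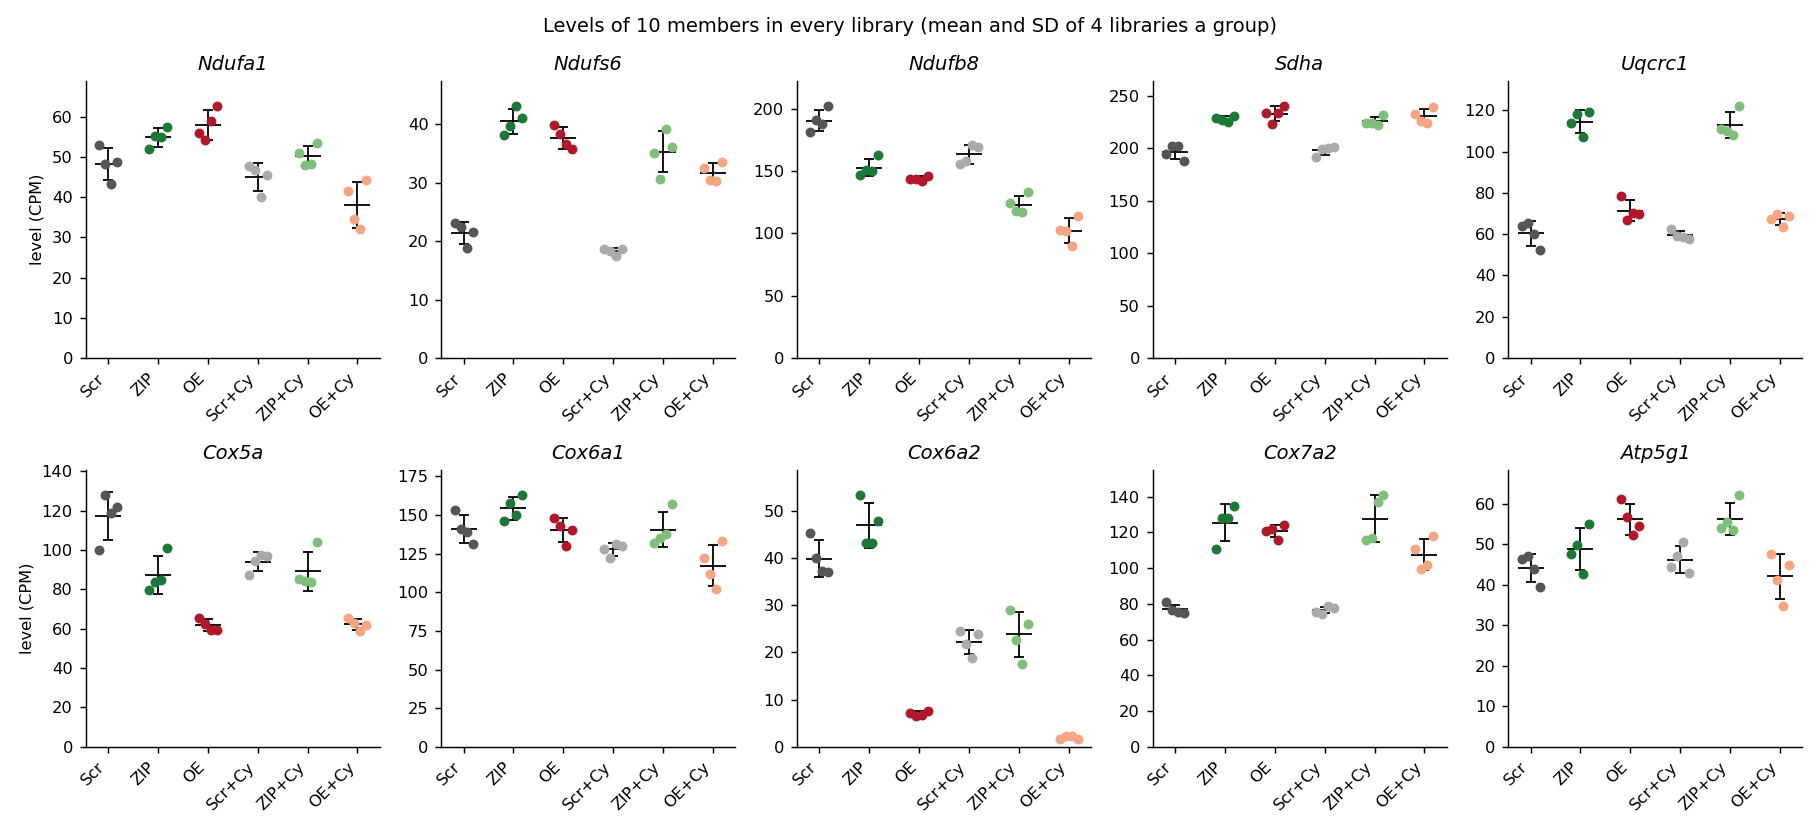
CPM (y axes, each from 0) of 10 members in the 6 groups (x axes), with points for libraries, a mark for the mean and bars for the SD of 4 libraries. The mean of Ndufa1 is highest in OE and lowest in OE+Cy, Sdha is higher in ZIP and OE regardless of treatment, and Cox6a2 falls with cytokines in each line and is lowest in OE+Cy.

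Complex V, the ATP synthase, had the largest share of its subunits lower in OE+Cy against OE among the 5 complexes. Of its 17 subunits, 2 were higher and 1 lower in ZIP, and 3 higher and 2 lower in OE. After cytokines, 1 was lower in the Scr line, 1 in the ZIP line and 15 in the OE line. In OE+Cy against OE all 17 values were below 0, with a median log2 fold change of −0.29. All 9 subunits of the peripheral stalk and membrane part were lower (median −0.34), as were 4 of 5 subunits of the catalytic F1 part (median −0.15) and 2 of the 3 genes for the c ring (median −0.42). Between OE+Cy and Scr, 13 of 17 were lower. Over all 97 members that comparison had 10 higher and 49 lower, where 59.5% of all genes were called (30.4% higher and 29.1% lower).

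Atp5g1, which encodes a c subunit identical in its mature form to that of the other Atp5g genes, was 46.3, 47, 43.8 and 39.5 CPM in Scr, 47.5, 49.9, 42.6 and 55 in ZIP, and 61.2, 56.7, 52.2 and 54.5 in OE. After cytokines it was 44.5, 47.1, 50.5 and 42.8 CPM in treated Scr cells, 54.1, 55.4, 53.6 and 62.2 in treated ZIP cells and 47.5, 41.1, 34.8 and 45 in treated OE cells. Libraries of OE were above those of OE+Cy, while Scr and Scr+Cy overlapped. The log2 fold change was 0.35 in OE (SE 0.0876, adjusted p = 0.00192) and −0.42 in OE+Cy against OE (SE 0.0879, adjusted p = 0.00041), with a difference between responses of −0.48 (SE 0.124, adjusted p = 0.00765). Atp5g1 was chosen for this call after its values were seen.

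The catalytic subunits changed less. Atp5b was 844 ± 25.5 CPM in Scr, 1010 ± 36.5 in OE and 908 ± 37.6 in OE+Cy, with log2 fold changes of 0.25 in OE (adjusted p = 0.000339) and −0.15 in OE+Cy against OE (adjusted p = 0.0279). Atp5a1 was 609 ± 15.2 CPM in Scr, 672 ± 23 in ZIP and 560 ± 29.9 in OE+Cy, with log2 fold changes of 0.14 in ZIP (adjusted p = 0.0284) and −0.13 in OE+Cy against OE (adjusted p = 0.0252). Atp5md, a small membrane subunit, was 49.5, 49.2, 41.8 and 47.8 CPM in Scr, 36.8, 30.8, 33.1 and 34.1 in OE and 26.8, 21, 23.4 and 26.2 in OE+Cy. Its log2 fold change was −0.84 in OE+Cy against Scr+Cy (SE 0.0975, adjusted p = 1.06e-07). It overlaps Taf5 on the opposite strand, which was 25 ± 2.5 CPM in Scr and 16.4 ± 0.735 CPM in OE+Cy. The reads of the 2 genes cannot be separated without strand.

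Because subunits of complex V moved together in OE+Cy, their promoters were searched for 4 motifs of factors known to act on respiratory genes, on both strands from 250 bases before to 50 bases after each start in RefSeq (GRCm38.p6). An entry was found for 76 of 97 members and for 13884 genes of the table. The NRF1 motif, taken as GCGCA and GCGC with 1 base of any kind between them, was held by 19 of 76 members (25%) and by 1290 of 13884 genes (9.29%). By complex it was held by 7 of 33 subunits of complex I, 2 of 3 of complex II and 1 of 5 of complex III. It was held by 1 of 9 subunits of complex IV and 6 of 15 of complex V. The YY1 motif AAGATGGCG was held by 10.5% of members and 2.75% of all, the ERR motif TCAAGGTCA by 2.63% and 0.288%, and the ETS motif CCGGAAGT by 6.58% and 7.34%. The 6 complex V windows are shown as 30 bases with the match in capitals. They lie on the minus strand at chr2:10080430-10080459, chr15:102671070-102671099, chr2:73911295-73911324, chr11:115420041-115420070, chr5:108434430-108434459 and chr16:91931602-91931631, in the order printed. In Atp5g3 and Atp5o the capitals are the reverse complement of the motif, which there reads on the other strand.
Atp5c1: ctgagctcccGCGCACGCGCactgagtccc
Atp5g2: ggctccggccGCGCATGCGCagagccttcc
Atp5g3: gagccgcaccGCGCTTGCGCgcccagcccc
Atp5h: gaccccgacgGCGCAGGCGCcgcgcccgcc
Atp5k: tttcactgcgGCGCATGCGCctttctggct
Atp5o: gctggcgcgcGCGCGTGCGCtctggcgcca

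Of these 6 genes, Atp5g2 was not called in OE+Cy against OE (−0.12), and the log2 fold changes of the other five ran from −0.44 (Atp5g3) to −0.17 (Atp5c1). That is 5 of 6 with the motif, beside 15 of all 17 complex V subunits. A match to these letters is a description and does not show that a factor is bound.

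Several of the members past a 1.5-fold change between lines, treated or untreated, lie beside genes that differed in the same way. Among genes with a mean of at least 10 CPM within 2 Mb on either side, the median log2 fold change in ZIP was 0.81 around Uqcrc1 (49 genes, 47 higher and 0 lower) and 0.81 around Ndufaf3 (52 genes, 50 higher), which share most of that window on chr9. Around Cox7a2, elsewhere on chr9, it was 0.71 in ZIP and 0.72 in OE (10 genes, 9 higher in each). Around Ndufb7 on chr8 it was −0.60 and −0.57 (52 genes, 49 and 42 lower). Around Ndufb8 and Atp5md on chr19 it was −0.43 and −0.51 in ZIP and −0.36 and −0.39 in OE.

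In these untreated comparisons the changes of Cox7a2, Ndufb7, Ndufb8 and Atp5md in both lines, and of Uqcrc1 and Ndufaf3 in ZIP, were near those of their neighbours, and a difference of the member alone cannot be told apart from one of the region. In OE, Uqcrc1 was higher (0.24) while its neighbours were at −0.10. Between treated libraries, in OE+Cy against Scr+Cy, Atp5md was at −0.84 with neighbours at −0.39, and Ndufb8 at −0.68 with neighbours at −0.37. Other members stood further from their neighbours in the untreated lines. Ndufs6 (0.91 in ZIP and 0.81 in OE) had neighbours at 0.11 and 0.26 (12 genes), and Cox5a (−0.43 and −0.93) had neighbours at −0.01 and −0.12 (30 genes). Sdha (0.22 in ZIP and 0.25 in OE) lies in the window around Ndufs6, where 8 genes were higher and 0 lower in OE. Its change in OE was near the median of that window, so a difference of Sdha alone cannot be told apart there from one of the region. For Cox6a2 in OE (−2.52) the neighbours were at −0.15 (67 genes). For Cox6c in OE (−0.46) the neighbours were at 0.00 (16 genes) and for Ndufaf6 in OE (−0.71) at −0.21 (17 genes). In OE+Cy against Scr+Cy, Ndufaf6 was nearer to them (−0.34 with neighbours at −0.25).

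**Figure D4:**
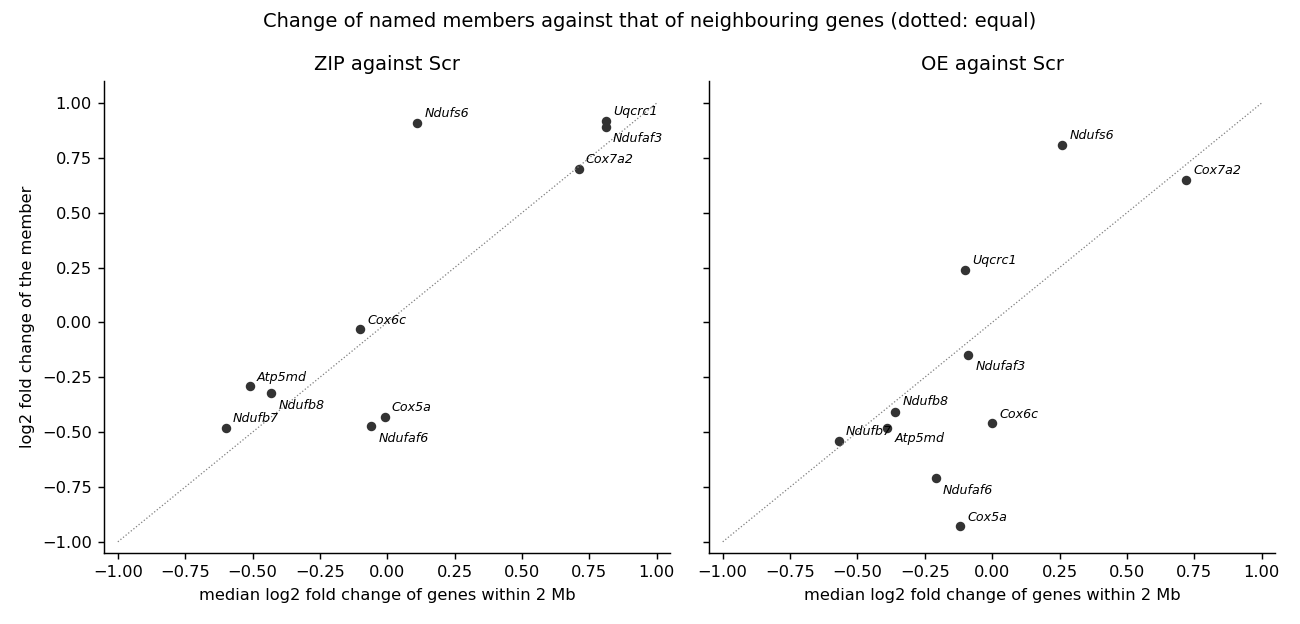
Log2 fold change of members past a 1.5-fold change between lines, treated or untreated (y axis) against the median of genes at 10 CPM or more within 2 Mb (x axis), for ZIP (left) and OE (right) against Scr, with a dotted line where both are equal. Cox7a2, Ndufb7, Ndufb8 and Atp5md lie near the line in both panels, Uqcrc1 and Ndufaf3 near it in ZIP, and Ndufs6 and Cox5a away from it. Cox6a2 lies outside the range of the axis and is not drawn.

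The line differences were also measured between treated libraries, which share no sample with the untreated ones. In ZIP+Cy against Scr+Cy, 14 members were higher and 3 lower (28.1% of all genes called), and 15 of these 17 (88.2%) had been called in the same direction in ZIP against Scr, that is 83.3% of the 18 called there. Over all genes the corresponding shares were 72.3% and 71.6%. In OE+Cy against Scr+Cy, 15 members were higher and 33 lower, where 53.4% of all genes were called and 27.4% were lower (63.7% and 34.4% of genes at 10 CPM or more). Past the 1.5-fold limit, 9 members were called there (28.5% of all genes). Of these 48, 26 (54.2%) were called in the same direction in OE against Scr, which is 74.3% of the 35 there, and 1 was called in the opposite direction. Over all genes these shares were 63.5% and 67.6%, with 404 genes called in opposite directions. The member with opposite calls was Ndufa1, higher in OE (0.26) and lower in OE+Cy (−0.24).

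Whether the lines responded differently to cytokines was tested as a difference of differences. For ZIP against Scr, 0 members were called by edgeR (0.0565% of all genes), 2 passed an unadjusted p under 0.05 and DESeq2 called 0. For OE against Scr, 2 were higher and 12 lower of 97 members, where 20% of all genes were called (9.64% higher and 10.3% lower). Among genes at 10 CPM or more, 29.5% were called and 16.6% were lower. The share of members called was thus below that of all genes, and the share lower was near it. By complex the members called were 5 of 39 subunits of complex I, 0 of 4 of complex II, 2 of 9 of complex III, 3 of 17 of complex V and 1 of 11 of complex IV, the last being the rise of Cox5a relative to Scr. The others were Cox6a2, Cox7b2 and Cox7a2l. The median difference was −0.09 over the members. The 14 calls became 9 without Scr replicate 1, Scr replicate 2, OE replicate 2, Scr+Cy replicate 3 or Scr+Cy replicate 4, and 8 without OE+Cy replicate 3.

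Ndufa1, Atp5g1 and Uqcrfs1 were higher in OE than in Scr before treatment and lower in OE+Cy than in OE. In OE+Cy against Scr+Cy the log2 fold change was 0.08 for Uqcrfs1 (adjusted p = 0.274) and −0.13 for Atp5g1 (adjusted p = 0.209). A p above the threshold does not show that these levels were equal.

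**Figure D5:**
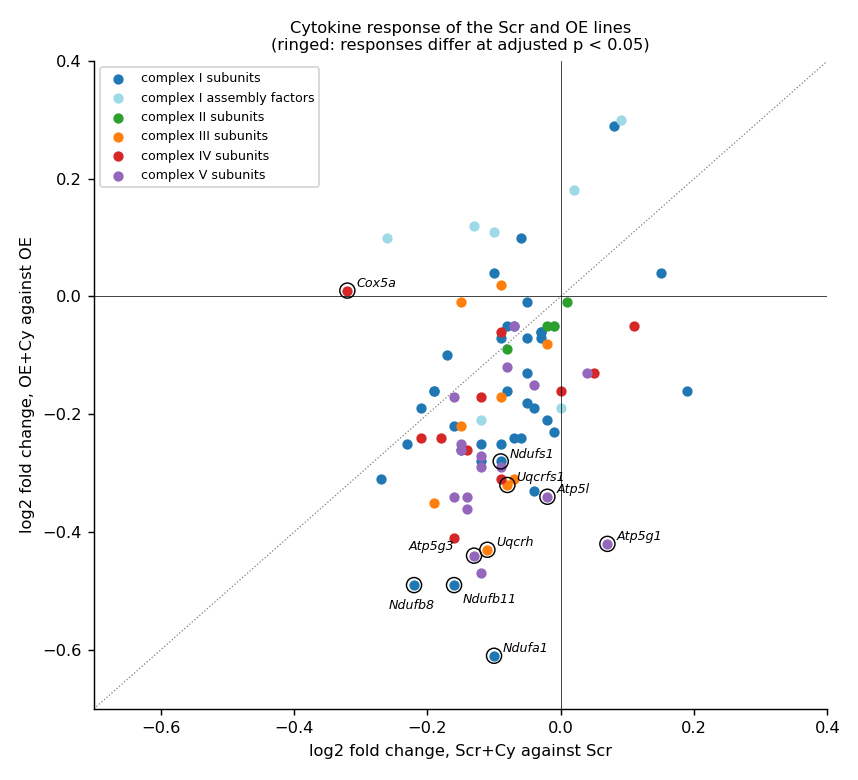
Log2 fold change after cytokines in the Scr line (x axis) and in the OE line (y axis) for common subunits and complex I assembly factors, coloured by class. The dotted line marks equal responses and rings mark members whose responses differed at an adjusted p under 0.05. Most subunits lie below the line, complex II lies close to the origin, and Cox5a is the ringed subunit above the line.

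Genes of the same pathway outside the symbol rule were taken from fixed lists. Of 46 other assembly factors, 9 were higher and 2 lower in ZIP, and 10 higher and 13 lower in OE. After cytokines, 4 were higher and 5 lower in the Scr line, 4 higher and 9 lower in the ZIP line, and 12 higher and 9 lower in the OE line. Of all genes, 28.3% were called in ZIP and 50.1% in OE. With cytokines 17.8%, 26.4% and 44.6% of all genes were called in the Scr, ZIP and OE lines, and in OE 23% were higher and 21.5% lower. The shares of these assembly factors called were near those of all genes. In OE+Cy their median log2 fold change was 0.06, above that of the subunits. Of 9 carriers of nucleotides, phosphate and protons, 1 was higher and 4 lower in OE+Cy against OE, among them the adenine nucleotide translocases Slc25a4 (−0.19) and Slc25a5 (−0.32), the phosphate carrier Slc25a3 (−0.31) and the outer membrane channel Vdac1 (−0.23), all 4 named after their values were seen. Of 15 genes for cytochrome c and ubiquinone synthesis, 3 were higher and 2 lower, and of 15 regulators of respiratory genes 4 were higher and 4 lower. The counts of these short lists stand beside the same 44.6% of all genes.

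The extremes of these lists differed by comparison. In ZIP, the uncoupling protein Ucp2 was lowest (14.6 ± 2.54 CPM against 55.5 ± 7.34 in Scr, log2 fold change −1.93, adjusted p = 6.51e-12) followed by Higd1a (−1.17, adjusted p = 0.0199), a small inner membrane protein. The complex IV assembly factors Cmc1 (0.86, adjusted p = 4.42e-07) and Coa4 (0.62, adjusted p = 2.59e-05) were highest. In OE, the coactivator Ppargc1a was higher (8.16 ± 1.48 CPM against 4.23 ± 0.359, log2 fold change 0.95, adjusted p = 1.45e-05) and its relative Ppargc1b lower (−0.91, adjusted p = 4.23e-06), and Coq10b, of the ubiquinone list, was higher (0.52, adjusted p = 3.81e-05). Higd1a had 0 reads in all OE and OE+Cy libraries and 2.18 to 5.56 CPM in Scr. Cmc2 in OE+Cy against OE had the largest fall (−0.81, adjusted p = 2.66e-07), followed by Cox20 (−0.62, adjusted p = 4.5e-05). The largest called rises there were those of the uncoupling protein Ucp1, which had 0 reads in OE and stayed at 0.169 CPM or less in OE+Cy, and of the copper chaperone Sco2 (0.82, adjusted p = 0.0205). In Scr+Cy, Ppargc1b (−0.55, adjusted p = 0.00475) and Cox20 (−0.49, adjusted p = 0.00222) were lowest, and Tmem126b (0.29, adjusted p = 0.0418) and Foxred1 (0.28, adjusted p = 0.00616), both complex I assembly factors, were highest. In ZIP+Cy against ZIP, Higd1a (−1.44, adjusted p = 0.0124) and Ppargc1b (−0.74, adjusted p = 0.000156) were lowest, and Pdss1 (0.53, adjusted p = 0.000832) and Sdhaf2 (0.34, adjusted p = 0.000722) were highest. Esrra, a nuclear receptor that acts with these coactivators, was higher in OE+Cy against OE (0.53, adjusted p = 7.95e-05) and was chosen for its role after its value was seen. The other regulators called higher there were Ppargc1a (0.38), Polg2 (0.42) and Twnk (0.31). Those called lower were Nrf1 (−0.19, adjusted p = 0.0115), Tfb1m (−0.31), Tfb2m (−0.37) and Polg (−0.12), likewise named after their values were seen.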

How the data were processed

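Poly(A) libraries of 24 MIN6 samples were analysed (6 groups of 4). The authors deposited estimated counts per gene, of which 30.3% were not whole and which sum to the reads assigned per library, and a normalized signal table that equals the same counts divided by 1 factor per library, to within 9.57e-06. Only the estimated counts, rounded to whole numbers, were tested. The submitters' processing notes name FastQC, STAR 2.7.8a, Partek 11.0.24.0204, DESeq2 and mm10, with STAR and Partek versions other than those of the study's methods, and the study kept genes with at least 10 reads in all.

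The members and all gene lists were chosen with earlier results of these data known. All 17696 genes were fitted together in edgeR 4.0.16 (R 4.3.3, limma 3.58.1) with TMM scaling, 6 group means and the quasi-likelihood test. Genes were called at a Benjamini-Hochberg adjusted p under 0.05 over all genes with no fold limit, in 9 comparisons and 2 differences of responses. The study's limits, a fold change of 1.5 and an unadjusted p of 0.05, were an alternative, as were DESeq2 1.42.0, its size factors, filterByExpr, a fit of the compared groups alone, a replicate block and leaving out each library. Intervals and floors (3 reads per library) cover counting error only. The libraries are numbered 1 to 4 in each group, and each number carries the same prefix (P65 to P68) in all groups. What the prefix means is not stated, so separate cultures are not given by the labels, and p-values measure the spread between these samples, which may be technical. Mitochondrially encoded subunits were not analysed here, and the values of 1 member are not reported here.

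Named members were those past a 1.5-fold change and 1 CPM in a comparison, the 3 largest rises and falls at 10 CPM or more in each of 5 comparisons, core subunits fixed by name and the complex IV isoforms; others are marked in the text. Genes of the other lists were named at an adjusted p under 0.05, the 2 largest rises and falls of a comparison. Same-numbered libraries deviated together over 12670 genes in Scr+Cy against Scr (correlations 0.413 to 0.626), in ZIP and Scr (0.141 to 0.634), in ZIP+Cy and ZIP (0.261 to 0.397), in OE+Cy and OE (0.162 to 0.455) and in ZIP+Cy and Scr+Cy (0.191 to 0.37), and were taken as paired there. The main calls had no replicate term, so this pairing entered only through the replicate block. No 2 libraries were near enough to be copies. The fit was tested on data simulated with known changes in OE against Scr, at genes of 10 CPM or more. It called 100% of changes of 1.5-fold and 49% of those of 1.25-fold, so smaller changes can go uncalled. Sequences came from RefSeq tables and GENCODE M21, all on GRCm38.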

Additional observations from a re-analysis of the deposited data

Results flagged for a closer look

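In 192 groups of 4 libraries, over named members and the summed complexes, 9 had a library far from the other three by Dixon's criterion, which chance gives in about 1 of 20 groups. Ndufv1 was 100 CPM in Scr replicate 2 against 87.5 to 89 in the others. Ndufaf6 was 5.58 CPM in ZIP replicate 4 against 4.32 to 4.34, and 5.45 CPM in ZIP+Cy replicate 4 against 4.41 to 4.49. Cyc1 was 85.9 CPM in ZIP replicate 4 against 75.9 to 77.4, and Cox5a was 104 CPM in ZIP+Cy replicate 4 against 83.7 to 85.2. Cox6c was 105 CPM in OE replicate 4 against 97.5 to 98.1, and Cox4i1 was 184 CPM in OE+Cy replicate 4 against 160 to 163. Ndufv3 was 66.5 CPM in OE replicate 1 against 74.7 to 76.3, and Ndufs1 was 97.5 CPM in Scr+Cy replicate 3 against 93.1 to 93.3. In 6 of the 9 cases the library apart was replicate 4, each time the highest of its group.

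The cytokine response of OE differed from that of Scr in an edgeR test of the difference for the following 12 members, each at 1 CPM or more. Such a difference was called for 20% of all genes, a larger share than among the members. On the log2 scale the difference was −1.0 for Cox6a2 (adjusted p = 0.000887), −0.51 for Ndufa1 (adjusted p = 0.00342) and −0.48 for Atp5g1 (adjusted p = 0.00765). It was −0.33 for Ndufb11 and −0.33 for Uqcrh (adjusted p = 0.0242 and 0.0277). For Atp5l it was −0.32, for Atp5g3 −0.31 and for Ndufb8 −0.27 (adjusted p = 0.0367, 0.018 and 0.0219). For Uqcrfs1 it was −0.24 and for Ndufs1 −0.19 (adjusted p = 0.0404 and 0.0358). The difference was above 0 for Cox7a2l at 0.37 and for Cox5a at 0.33 (adjusted p = 0.0336 and 0.0412).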

How the results depend on the processing

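With the study's limits of a fold change of 1.5 and an unadjusted p under 0.05, fewer members were called: 4 in ZIP, 9 in OE and 2 in Scr+Cy against Scr, 3 in OE+Cy against OE, 1 in ZIP+Cy against ZIP, 9 in OE+Cy and 5 in ZIP+Cy against Scr+Cy, 11 in OE+Cy and 6 in ZIP+Cy against Scr, and 3 in the difference between the responses of OE and Scr. With the replicate block, the count in ZIP+Cy against ZIP went from 15 to 23, and no other count moved by over 1.5 times. Leaving out each library gave 14 to 20 calls in ZIP, 30 to 35 in OE, 40 to 54 in OE+Cy against OE, 9 to 17 in ZIP+Cy against ZIP and 4 to 12 in Scr+Cy against Scr, 36 to 44 in OE+Cy and 12 to 22 in ZIP+Cy against Scr+Cy, 43 to 60 in OE+Cy and 18 to 22 in ZIP+Cy against Scr, 0 in the difference for ZIP and 8 to 17 in that for OE. The libraries that moved a count by over 1.5 times are those named beside these counts in the report. DESeq2, its size factors, filterByExpr and a fit of the compared groups alone kept each count within 1.5 times. Of 1858 alternatives for 138 results on named members, 1708 kept direction and call, 150 lost the call and 0 reversed. Calls at small changes, such as Ndufs1 in OE+Cy against Scr+Cy and Ndufaf3 in OE+Cy against Scr, were lost under DESeq2's test and its size factors, and the cause was not tested.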
